A study of Mus with 4 samples.

Results

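The podocyte lineage transcription factors are the DNA-binding proteins that specify podocytes, the filtering epithelial cells of the glomerulus, from the kidney mesenchyme. The 7 genes Wt1, Lmx1b, Tcf21, Foxc1, Foxc2, Foxd1 and Pax2 were taken by symbol, with every probe that carried the symbol, and make up 7 of 26893 named genes and 14 of 56605 probes on the array. The rule takes genes by name and uses no measured value, although the names were chosen with earlier results of these data known. Of these 14 probes, 11 were bright enough to be tested, for 6 of the 7 genes, and the 3 others are given below as at background. Testing required that, in at least 1 group, the scanner software had marked the probe well above background on both arrays.

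The study compared cultures of 1 immortalised murine podocyte line infected with a lentivirus encoding the fluorescent protein Venus, the control, with cultures infected with a lentivirus encoding OASIS in its active, N-terminal form. OASIS, the product of Creb3l1, is a transcription factor held in the endoplasmic reticulum membrane until its N-terminal part is cut free. The same protocol is given for all 4 samples, with the multiplicity of infection as a range and not per sample. The line was differentiated at 37 °C for 10 to 14 days, exposed to virus for 24 h at a multiplicity of infection between 200 and 500 with 8 µg/mL polybrene, and lysed for RNA at 48 h. Expression came from the pCSII-EF vector, so that OASIS was made as a short fragment from a constitutive promoter and not from its own gene. There were 2 arrays per group, numbered 1 and 2 by the labels. Nothing states that they came from separate cultures, and p-values therefore measure only the spread between these samples, which may be technical.

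In development, Pax2 and Foxd1 mark neighbouring compartments of the early kidney, the nephron-forming mesenchyme and the stroma. Wt1, a zinc finger protein, acts first in the nephron-forming mesenchyme and later stays on in the podocyte, where it binds the genes of the slit diaphragm, the junction between podocyte foot processes. Lmx1b, Tcf21, Foxc1 and Foxc2 act beside it in the maturing podocyte, while Pax2 is normally shut off there.

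The arrays themselves were close to each other. Between 57.2% and 58.0% of the 59305 spots that are not controls were well above background on each array, and 0 spots were saturated. Pearson's r across probes, which are not independent replicates, was 0.997 and 0.995 within the groups and 0.973 to 0.978 between them. The slide and the scan were shared (1 of each), with the Venus arrays at the first positions and the OASIS arrays after them, so position on the slide and group cannot be told apart. The single Creb3l1 probe on the array did not show the vector, with a log2 fold change of -0.17 ± 0.10 (SE, n = 2 per group, limma adjusted p = 0.298). Whether this probe lies in the N-terminal fragment is not given in the sources used here, and it therefore does not check the labels. Among the podocyte markers, Wt1, Podxl, Synpo and Cd2ap were well above background on both arrays of each group, and Nphs1, which encodes the slit diaphragm protein nephrin, was not in either group. Of its probes, 1 carried the mark on 1 Venus array, at -5.78, and on 0 OASIS arrays, and the other carried it on 0 arrays.

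Among the lineage factors, 1 of 6 genes tested passed the threshold, and it was Wt1, on 1 of its 2 probes. That probe rose 24.6-fold with OASIS. The other Wt1 probe and all 9 tested probes of Lmx1b, Foxc1, Foxc2, Foxd1 and Pax2 did not pass. Tcf21 was at background on all 4 arrays. The threshold was a fold over 2.0 or under 0.5 with an adjusted p under 0.1, and 8.36% of all probes tested passed it, 5.89% as higher and 2.47% as lower. Counted by gene, 12.2% of all genes tested had at least 1 probe past it, with 8.63% higher and 3.62% lower, and with 6 genes tested, the 1 gene past it is close to that background. On adjusted p alone, 1 of the 11 probes was under 0.1, against 36.7% of all probes tested. Levels below are log2 intensities relative to the 75th percentile of the array, which is set to 0, and changes are differences of group means on that scale. They may be compared between arrays for 1 probe, but not between probes.

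**Figure D1:**
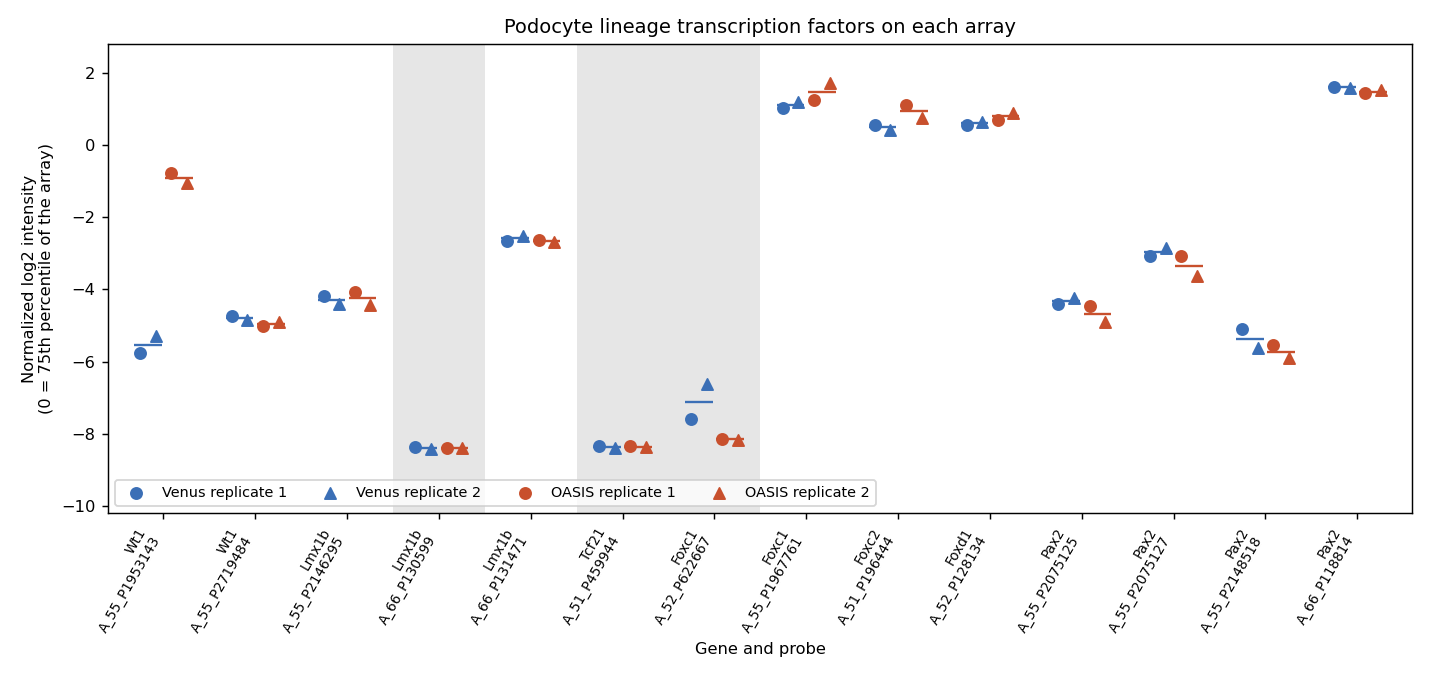
Normalized log2 intensity (vertical axis, 0 being the 75th percentile of the array) of each of the 14 probes of the 7 genes on the 2 Venus arrays (blue) and 2 OASIS arrays (red), with short lines at the group means; grey bands mark the 3 probes at background. Wt1 A_55_P1953143 is the probe whose groups lie far apart, at -5.77 and -5.29 against -0.76 and -1.06.

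Wt1, on chromosome 2 in band qE3, is the factor by which podocyte nuclei are usually recognised. Its probe A_55_P1953143, designed on the RefSeq mRNA, stood at -5.77 and -5.29 on the Venus arrays and at -0.76 and -1.06 on the OASIS arrays. Both OASIS arrays lay far above both Venus arrays, with 4.23 log2 units between the nearest 2 arrays of different groups and at most 0.48 between arrays of 1 group. The log2 fold change was 4.62 ± 0.21 (SE, n = 2 per group), with a 95% interval from 4.07 to 5.17, which corresponds to 16.8-fold to 36.1-fold (limma adjusted p = 0.00215). This rise ranked at place 71 among the rises of all 31598 probes tested. With 2 arrays against 2, the exact two-sided permutation test over samples cannot go below 0.333, and this probe gave that value.

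The Venus signal behind this fold was weak. Its level there lay only a little above the lowest level at which any probe was marked well above background, which was between -6.15 and -6.10 on the 4 arrays. On the scanner scale, the median intensity of the spot was 62 and 67 on the Venus arrays over a local background of 43.5 and 41. On the OASIS arrays the same spot read 596 and 456.5 over a background of 37 and 35. The OASIS spots were thus bright against their surroundings and the Venus spots only slightly so, although the probe carried the mark well above background on all 4 arrays. Normexp correction of the median spot intensities with an offset of 50, which replaced the corrected intensity of the scanner software, gave a log2 fold change of 2.68, still past the threshold (limma adjusted p = 3.49e-05). Which of these changes in processing lowered the fold was not tested.

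The second Wt1 probe, A_55_P2719484, designed on an Ensembl transcript of the gene, stayed low in both groups. It stood at -4.74 and -4.86 on the Venus arrays and at -5.01 and -4.91 on the OASIS arrays. The OASIS arrays lay just below the Venus arrays, and the log2 fold change was -0.16 ± 0.11 with a 95% interval from -0.45 to 0.13 (limma adjusted p = 0.343). Its spots read between 70 and 76 over a background of 31 to 38, so the probe was measured and did not share the rise. The exons that each probe reads, and the strand of the second transcript, are not given in the sources used here, and averaging the probes gives 2.23, a value that neither probe shows.

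**Figure D2:**
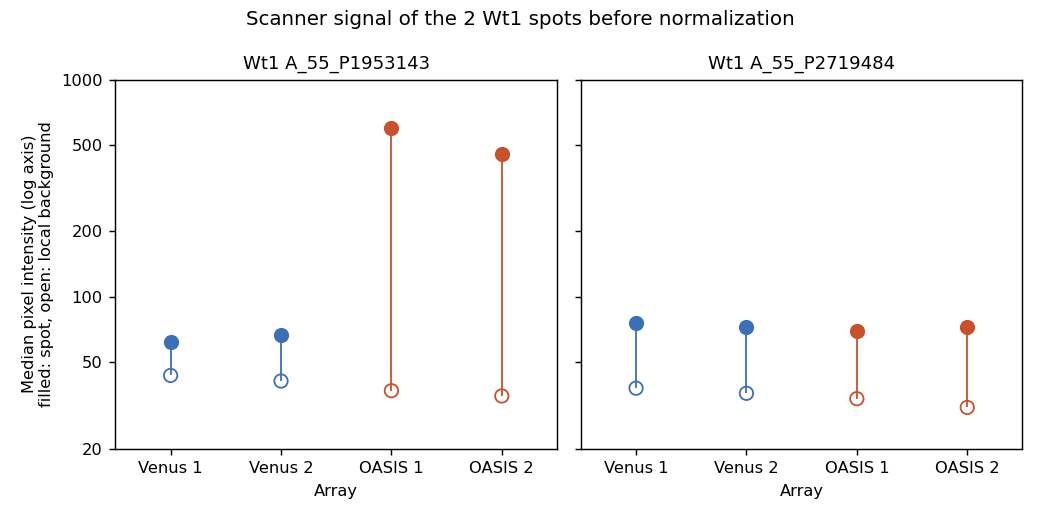
Median pixel intensity (log axis) of the spot (filled) and of its local background (open) for the Wt1 probes on each array before normalization. For A_55_P1953143 the spot lies near its background on the Venus arrays (62 over 43.5 and 67 over 41) and far above it on the OASIS arrays (596 over 37 and 456.5 over 35), while A_55_P2719484 reads 70 to 76 on all arrays.

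The genes beside Wt1 were at background. Wt1os, the antisense gene that precedes it, and Them7, which follows it, were not well above background on any array. The other zinc finger genes of related DNA-binding domain, Egr1, Egr2, Egr3 and Egr4, were tested and 0 passed the threshold. Over all genes tested 12.2% passed, so 0 among so few genes is close to that background. Egr1, an immediate early gene, lay at -0.19 (limma adjusted p = 0.687), Egr2 at -0.01 and Egr4 at 0.34. Egr3 lay at 0.76 on its tested probe (limma adjusted p = 0.0884), which was marked above background on 1 Venus array and was tested only through OASIS. The probe most like the first Wt1 probe in its pattern over the 4 arrays, by the smallest Euclidean distance between centred log2 values, was one of Papss2, an enzyme that makes the sulphate donor of the cell, at a distance of 0.120. Papss2 stood at -1.32 and -0.86 on the Venus arrays and at 3.72 and 3.53 on the OASIS arrays. Next came Hoxd3os1, an antisense RNA of the HoxD cluster, at 0.269, and Amigo3, a membrane adhesion protein, at 0.285, both at background under Venus. With 4 arrays in 2 groups, such likeness mostly repeats the size of the group difference.

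Lmx1b, on chromosome 2 in band qB, is the LIM homeobox factor mutated in nail-patella syndrome. Its probe A_66_P131471 stood at -2.67 and -2.51 under Venus and at -2.62 and -2.70 under OASIS. The groups overlapped, and the log2 fold change of -0.07 had a 95% interval from -0.37 to 0.22 (limma adjusted p = 0.673). For this probe both OASIS spots carried the scanner's mark for an uneven local background. The probe A_55_P2146295 stood at -4.20 and -4.42 under Venus and at -4.07 and -4.43 under OASIS, overlapping again, with a change of 0.06 and an interval from -0.39 to 0.51. The remaining probe, A_66_P130599, was at background on all 4 arrays. For both tested probes the interval, fitted from 2 arrays per group, stopped short of 1 in either direction, so a change of 2.0-fold lies outside it.

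Tcf21, a basic helix-loop-helix factor of the kidney mesenchyme and of podocytes, on chromosome 10 in band qA3, has 1 probe on the array. Its spot read 42 and 42.5 over a background of 37 and 36 on the Venus arrays, and 40 and 42 over 34 and 31 on the OASIS arrays. None of these was marked well above background. No difference was detectable at this sensitivity, and no fold is given. Of the related genes Msc, Tcf15, Tcf23 and Tcf24, only Tcf24 was bright enough to be tested, and its probes did not pass the threshold, at 0.98 and -0.38.

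The forkhead factors were measured more brightly. Foxc1, on chromosome 13 in band qA3.2, acts in the kidney mesenchyme and in podocytes, and its probe A_55_P1967761 stood at 1.02 and 1.20 under Venus and at 1.26 and 1.71 under OASIS. Foxc2, its close relative on chromosome 8 in band qE1, stood at 0.56 and 0.43 under Venus and at 1.11 and 0.74 under OASIS. Foxd1, the stromal factor on chromosome 13 in band qD1, stood at 0.55 and 0.65 under Venus and at 0.69 and 0.89 under OASIS. For each of these probes both OASIS arrays lay above both Venus arrays, a pattern that 28.6% of all probes tested shared.

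None of these changes passed the threshold. The log2 fold change of Foxc2 was 0.43 ± 0.16 with a 95% interval from 0.0069 to 0.86 (limma adjusted p = 0.119). That of Foxc1 was 0.38 ± 0.19 with an interval from -0.11 to 0.87 (limma adjusted p = 0.203), and that of Foxd1 was 0.19 ± 0.12 with an interval from -0.13 to 0.51 (limma adjusted p = 0.301). For Foxc1 and Foxc2, the gap between the nearest arrays of different groups was 0.06 and 0.18, less than the 0.45 and 0.37 between their own OASIS arrays. The OASIS replicates set the range when 1 array was left out. Without OASIS replicate 1 the changes of Foxc1, Foxc2 and Foxd1 were 0.60, 0.25 and 0.29, and without OASIS replicate 2 they were 0.15, 0.62 and 0.09, with 0 past the threshold. The second Foxc1 probe, A_52_P622667, was at background on all 4 arrays. Mthfsd, the gene before Foxc2, leaned the same way on its 4 probes, from 0.21 to 0.43, with 0 past the threshold, and Foxf2 and Gmds beside Foxc1 lay between 0.21 and 0.23, also with 0 past it. On all these neighbour probes both OASIS arrays lay above both Venus arrays, the pattern shared by 28.6% of all probes tested. Foxl1, after Foxc2, was at background. Beside Foxd1, Gm9828 lay at 0.12 and 2310005E17Rik at -0.80, neither past the threshold.

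Pax2, the paired box factor of early nephron formation, on chromosome 19 in band qC3, has 4 probes, all tested. The brightest signal came from A_66_P118814, which stood at 1.61 and 1.59 under Venus and at 1.44 and 1.51 under OASIS. The probe A_55_P2075127 stood at -3.07 and -2.85 under Venus and at -3.08 and -3.63 under OASIS. For both probes the OASIS arrays lay below the Venus arrays, in the second case narrowly so for OASIS replicate 1. The remaining probes, A_55_P2075125 and A_55_P2148518, ran from -4.40 to -4.24 and from -5.63 to -5.10 under Venus, and from -4.91 to -4.45 and from -5.91 to -5.54 under OASIS, with overlap for the second of them.

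All 4 Pax2 changes were negative and 0 passed the threshold. They were -0.13, -0.39, -0.36 and -0.36 in the order just given, with limma adjusted p between 0.221 and 0.405. Probes of 1 gene on the same arrays are not independent, and 3 of these 4 probes lay below in both OASIS arrays, a pattern that 39.4% of all probes tested shared. The lowest 95% limit of the 4 was -0.98, so a fall of 2.0-fold lies just outside the intervals as fitted. That limit belongs to the dimmest probe, A_55_P2148518, whose spots read 56.5 to 67 over a background of 30 to 35. With a signal this weak and 2 arrays per group, the interval cannot exclude such a fall. OASIS replicate 2 had the lowest value of the 4 arrays on 3 of the probes. With 1 array left out, A_55_P2075127 ran from -0.67 (without OASIS replicate 1) to -0.12 (without OASIS replicate 2), and A_55_P2075125 from -0.59 to -0.13 in the same cases. A_55_P2148518 ran from -0.63 without Venus replicate 2 to -0.09 without Venus replicate 1. Under normexp correction these 3 probes lay at -0.20, -0.17 and -0.06. The mark for an uneven local background stood on 1 OASIS array for A_55_P2075125 and on 1 Venus and 1 OASIS array for A_66_P118814.

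**Figure D3:**
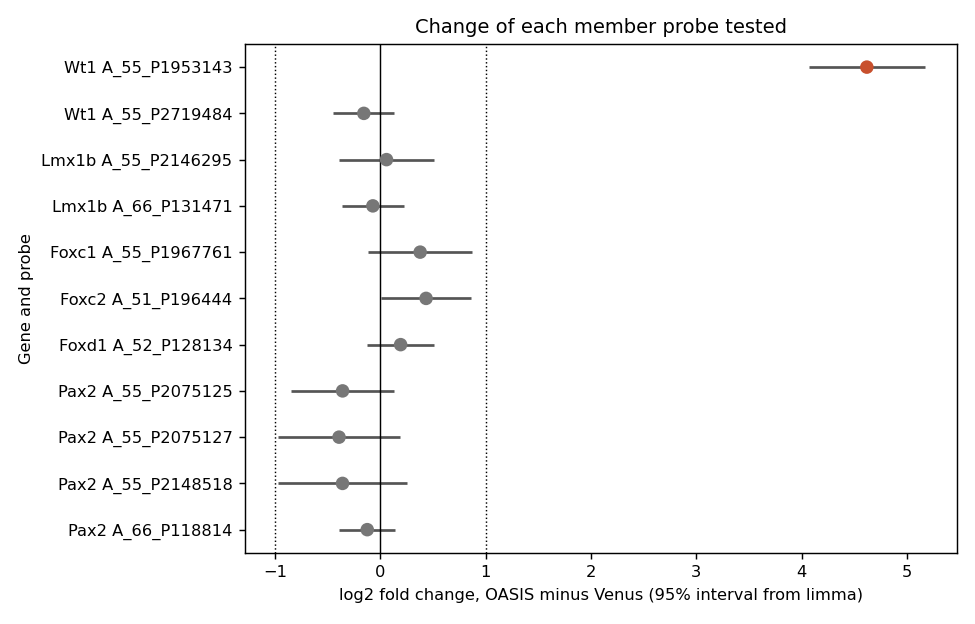
Log2 fold change, OASIS minus Venus, of the 11 tested probes with 95% intervals from limma (horizontal axis); dotted lines mark a change of 1 in either direction and red marks the probe past the threshold. Wt1 A_55_P1953143 lies at 4.62, and the other 10 probes lie between -0.39 and 0.43.

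Taking the 11 tested probes together, 5 changes were positive and 6 negative. Both OASIS arrays lay above both Venus arrays for 4 probes, below for 4, and the groups overlapped for 3. Over all probes tested, 68% had groups that did not overlap in either direction. The median change of the 11 probes was -0.07, and that of all probes tested was also -0.07. The within-group SD of the rising Wt1 probe, 0.283, was larger than the median of 0.124 over all probes tested, so its change stands out by its size and not by a small spread.

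The other transcription factors and partners of the podocyte, 12 genes that include the Lmx1b partner Ldb1, were all tested. Of these, 1 rose and 1 fell (16.7%, against 12.2% of all genes tested). This list and those below were chosen with earlier results of these data known. Zhx3, a zinc finger and homeobox repressor known in podocytes, rose by 1.07 on its probe A_55_P2101570 (limma adjusted p = 0.0102), from 0.27 and 0.50 to 1.46 and 1.45. Without Venus replicate 1 this change was 0.95 and no longer past 2.0-fold. The other tested Zhx3 probes lay at 0.56 and 0.98. The probe at 0.98 was marked above background on 1 Venus array and was tested only through OASIS. Klf15, a Krüppel-like factor that promotes podocyte differentiation, fell by 1.10 (limma adjusted p = 0.0151), from -2.40 and -2.36 to -3.67 and -3.30, and the fall was -0.91 without OASIS replicate 1. The median over the probes of this list was -0.08.

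Among 13 factors of the nephron progenitor and early nephron, 11 were tested, 2 rose and 0 fell (18.2%, against 12.2% of all genes tested). Hoxa11, a homeobox gene of the kidney mesenchyme, rose by 3.26 ± 0.31 (limma adjusted p = 0.00736), from -4.43 and -4.45 on the Venus arrays to -0.73 and -1.64 on the OASIS arrays. Sall1, a zinc finger factor of nephron progenitors, rose by 1.05 (limma adjusted p = 0.0128), and by 0.90 without OASIS replicate 2, where it no longer passed. Pax8 and Lhx1, the factors that act with and after Pax2, did not pass on any of their 3 probes each, at -0.50 to -0.35 and 0.39 to 0.68. The median over this list was -0.07, so the list as a whole was centred where all probes were.

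Podocyte genes that these factors are known to control or accompany showed 1 rise and 1 fall past the threshold. Of 13 genes, 9 were tested and 7 did not pass, so that 22.2% passed, against 12.2% of all genes tested. Nphs1, Ptpro and Areg were among those not bright enough to be tested. Cd2ap, an adaptor of the slit diaphragm, rose by 1.09 on A_52_P175066 (limma adjusted p = 0.00832) but lay at -0.37 and 0.31 on its other probes. Plce1, a phospholipase whose loss causes nephrotic syndrome, fell by 1.26 on A_55_P2744191 (limma adjusted p = 0.0932) and lay at -0.83 and 0.05 on its other tested probes. The Plce1 call was lost when Venus replicate 1, Venus replicate 2 or OASIS replicate 1 was left out, with changes of -1.50, -1.01 and -0.69. Synpo, which encodes the actin-binding synaptopodin, ran from -0.34 to 0.24 over its probes, and Podxl, the main sialoprotein of the podocyte surface, lay at 0.28, both without passing. The median over the list was -0.28, against -0.07 over all probes tested.

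**Figure D4:**
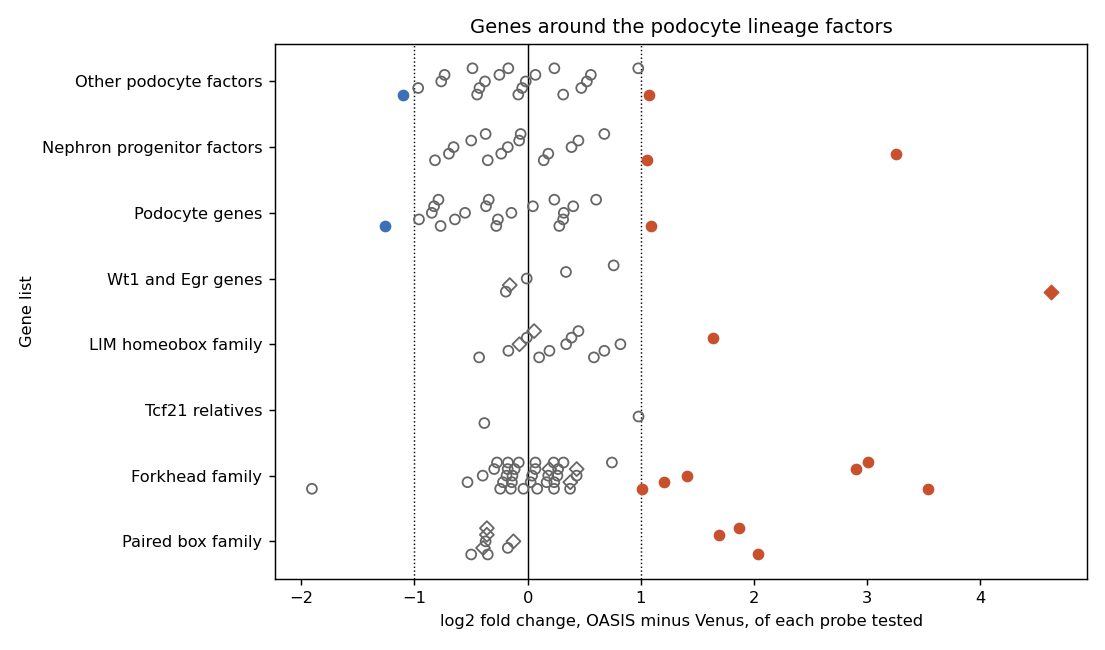
Log2 fold change, OASIS minus Venus, of every tested probe in the lists around the lineage factors (horizontal axis, 1 line per list); filled red and blue points passed the threshold as higher and lower, diamonds are probes of the 7 lineage factors, and dotted lines mark a change of 1. Apart from Wt1 at 4.62, Foxo6 at 3.54 and Hoxa11 at 3.26 lie farthest to the right, while most probes lie within the dotted lines.

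In the forkhead family, 31 of 44 genes were tested, 6 rose and 0 fell (19.4%, against 12.2% of all genes tested, of which 8.63% rose). Foxo6, a FoxO factor, rose by 3.54 ± 0.29 (limma adjusted p = 0.0058), from -4.05 and -3.68 to 0.04 and -0.69. Foxo1, the insulin-regulated FoxO factor, rose by 1.41 on 1 probe (limma adjusted p = 0.00803) and lay at 0.38 on the other. Foxb2 and Foxa2 lacked the mark for a signal above background on both Venus arrays, and passed the filter only through OASIS. They could therefore be called only as higher, and they add no separate support to the count of 6 rises. For Foxb2 and Foxa2, the OASIS mean was set against a floor. This floor was, per Venus array, the larger of the lowest level marked well above background there and the level of the probe. On the intensities as the scanner software corrected them, this gave rises of at least 6.08-fold and at least 1.55-fold (fitted log2 changes of 3.01 and 2.90). Under normexp correction neither passed, at 0.95 and 0.48. These values lie below the log2 bounds of 2.60 and 0.63, so the bounds hold only for the scanner software's correction. The other 2 genes, Foxd2 at 1.20 and Foxp1 at 1.01, are named in addition to the 4 largest rises, after their values were seen. Foxp1 passed on 1 of its 4 tested probes, and lay at 0.76 without Venus replicate 1 or OASIS replicate 2, no longer past the threshold. Its call was also lost under median scaling (0.99), normexp correction (0.89), the scaled values of the authors, the methods' t-test, no filter on dim probes and an adjusted p limit of 0.05.

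In the paired box family, 5 of 9 genes were tested, 2 rose and 0 fell (40%, against 12.2% of all genes tested). With 5 genes tested, this share is coarse. Pax9, a factor of pharyngeal and skeletal development, rose by 1.70 on A_52_P593379 (limma adjusted p = 0.0113). Its second probe, A_66_P126658, stood at -6.49 and -6.08 under Venus, marked above background on 1 of these arrays. It passed the filter only through OASIS, so its fitted change of 1.87 is no separate support. With 1 array left out, that change ran from 1.36 to 2.38. Pax3, a factor of neural crest and muscle precursors, rose by 2.03 on its tested probe (limma adjusted p = 0.0111), from -4.94 and -5.13 to -2.67 and -3.33. In the LIM homeobox family, 9 of the 12 genes on the array were tested. Of these, 1 rose and 0 fell (11.1%, against 12.2% of all genes tested). The gene was Lhx5, a factor of forebrain development, which rose by 1.64 (limma adjusted p = 0.0232). Without the filter on dim probes, neither Lhx5 (limma adjusted p = 0.101) nor the second Pax9 probe (limma adjusted p = 0.125) passed. Under normexp correction, Klf15 at -0.62, Sall1 at 0.79, Pax3 at 0.999, the second Pax9 probe at 0.53 and Lhx5 at 0.62 no longer passed, and under the methods' t-test after adjustment only Foxb2 and Slf2 of the genes named from the lists still did. Among the 16 chromosomal neighbours of the lineage factors, 10 were tested and 1 passed (10%, against 12.2% of all genes tested). That gene was Slf2, a DNA repair factor that follows Pax2, and it fell by 1.29 on A_65_P14675 (limma adjusted p = 0.00627).

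Markers of other cells were measured beside these results, and their part in them was not tested. A marker is called detected in a group when a probe was well above background on both of its arrays. Of 5 endothelial markers, 1, Pecam1, was well above background in both groups, and Cdh5, Kdr, Tek and Emcn were not in either. Of 4 macrophage markers, 3 were detected in both groups and Adgre1 in neither. Of 4 mesangial and stromal markers, 3 were detected under Venus and 2 under OASIS, Itga8 in neither and Des under Venus. Both Itga8 and Des carried the mark on 1 OASIS array, and Des changed by -0.30 without passing. All 3 markers of parietal epithelium were detected in both groups. Of these 4 lists, 1 endothelial, 3 macrophage, 3 mesangial and stromal and 3 parietal genes were tested, and 0 passed the threshold. Over all genes tested 12.2% passed, so 0 among so few genes is close to that background. Of 6 tubule markers, 3 were detected in both groups, while Umod, Slc12a1 and Cdh1 were not. The endocytic receptor Lrp2, a tubule marker, rose by 1.68 and 1.62 on 2 of its 5 probes (limma adjusted p = 0.0143 and 0.0148) and lay between -0.16 and 0.01 on the other 3. It was the 1 gene to pass among 3 tubule genes tested (33.3%, against 12.2% of all genes tested), a coarse share. All probes of a list, tested or not, were also summed on the linear scale, where the 75th percentile of the array is 1. For the tubule markers this sum ran from 33.5 to 43.5 under Venus and from 36.4 to 54.97 under OASIS. The same sum was 28.8 to 29.6 and 32.4 to 34.1 for the podocyte markers, 99.4 to 99.5 and 81.9 to 83.2 for the mesangial and stromal markers, 16.5 to 17.9 and 12.5 to 13.2 for the macrophage markers, 7.79 to 8.03 and 6.81 to 8.04 for the parietal markers, and 0.0420 to 0.0505 and 0.0520 to 0.0538 for the endothelial markers. All cultures were of 1 podocyte line, so these sums are levels of marker RNA and not numbers of cells of each type. Bright probes weigh most in them. On the log2 scale, the Venus and OASIS means were 6.13 and 5.86 for Acta2 A_52_P420504, 3.84 and 3.34 for Itgam A_55_P1977934, and 4.58 and 4.66 for Aqp1. For the podocyte markers, they were 2.37 and 3.46 for Cd2ap A_52_P175066, 2.74 and 2.37 for Cd2ap A_51_P229076, and 3.66 and 3.52 for Synpo A_51_P123676. Of these bright podocyte probes only the first rose, so the higher podocyte sum does not stand for the list. Wt1 is also part of that sum. Since unlike probes do not compare, the sums may be read between arrays but not between lists.

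The Wt1 result was then followed through the other ways of processing the arrays. On all 4 arrays, the rising probe stayed past the threshold in each of 12 other settings, with log2 fold changes from 2.68 to 4.69 and adjusted p from 2.75e-05 to 0.0941, the last from the methods' t-test. Leaving out each array in turn gave 4.38 to 4.86 with limma adjusted p of at most 0.0128. The second Wt1 probe lay between -0.22 and -0.01 in all of these settings and never passed. No other probe of the lineage factors passed the threshold in any of them.

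**Figure D5:**
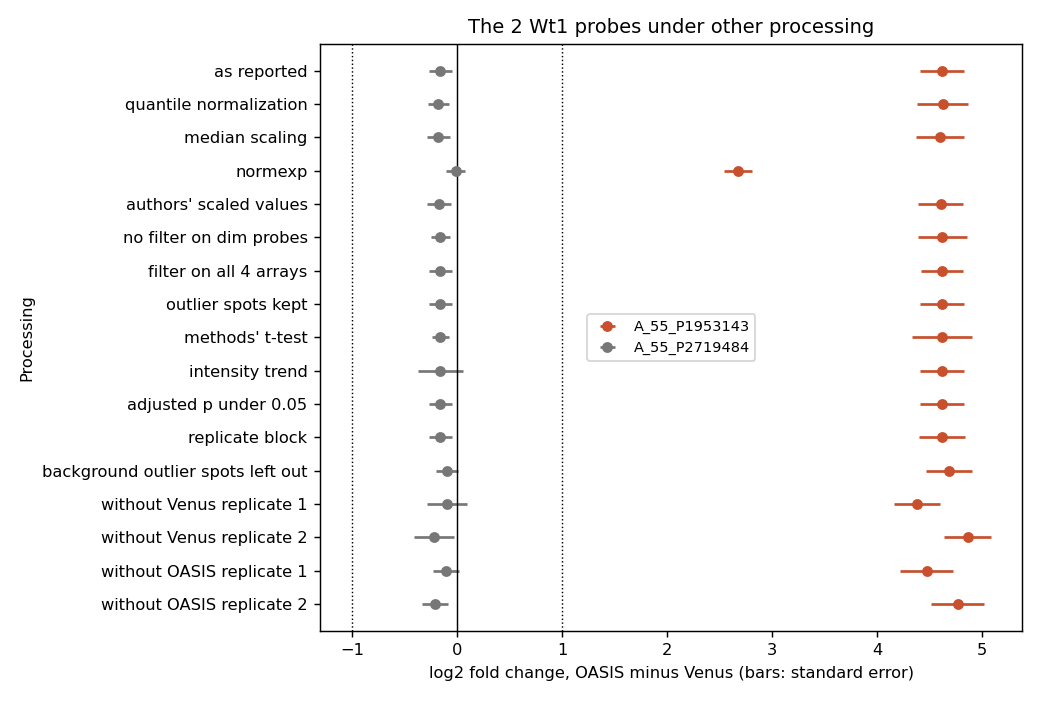
Log2 fold change, OASIS minus Venus (horizontal axis, bars being the standard error), of the Wt1 probes A_55_P1953143 (red) and A_55_P2719484 (grey) under each way of processing the arrays. The red probe lies at 2.68 under normexp and between 4.38 and 4.86 elsewhere, while the grey probe stays between -0.22 and -0.01.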

How the data were processed

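RNA of 2 Venus and 2 OASIS samples was hybridised to 1-colour Agilent arrays. The deposited scanner files hold, per the file headers, the intensity of each spot as Agilent Feature Extraction 12.1.0.3 corrected it for background for the authors, with median spot and background intensities and marks for outlying spots and for signals well above background. A table deposited by the authors gives the same intensities multiplied by 1 factor per array, between 0.663 and 0.698, with a detection score per spot and with gene symbols and bands, which were taken from it. From the deposited intensities, log2 values minus each array's 75th percentile were computed, without control and outlier spots, with replicate spots averaged. Testing required that at least 0.5 of a probe's spots were well above background on both arrays of a group (31598 probes, 16318 genes). The groups were fitted by lmFit and eBayes of limma 3.58.1 (R 4.3.3, data.table version 1.17.8), p-values were adjusted by Benjamini-Hochberg across every tested probe, and the fit was tested on simulated data. The number of arrays limits the precision. The threshold is that of the study's methods.

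The members, the 9 gene lists and the 6 marker lists were chosen with earlier results of these data known. By rule, the named genes are every member probe, Creb3l1, up to 4 genes past the threshold per list and direction, and the 3 probes most like a member probe that passed. Some genes that did not pass are named beyond this rule, among them Synpo, Podxl, Pax8, Lhx1, Egr1, Tcf24, Mthfsd, Foxf2 and Gmds. They are a choice from their lists and do not stand for the rest. A few list genes are not reported here by name. The forkhead family was limited to symbols of Fox, a letter and a number. Neighbours were taken from RefSeq on GRCm38.p6, and no coordinates are given, since the array's design used another build.

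Alternatives were quantile normalization, median scaling, the authors' scaled values, normexp on median spot intensities with an offset of 50, testing dim probes too, requiring all 4 arrays above background, keeping outlier spots, the methods' t-test, an intensity trend, an adjusted p under 0.05, a replicate block, the mean or the brightest probe of a gene, and leaving out each array. Leaving out spots with an uneven background was chosen after seeing the data.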

Additional observations from a re-analysis of the deposited data

How the results depend on the processing

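The counts of lineage factors past the threshold, 1 higher and 0 lower, were the same in all settings run, also with the mean or the brightest probe per gene. Normexp gave 972 probes higher and 250 lower over the whole array, the methods' t-test 551 and 175, against 1861 and 780. With 1 array left out, these ran from 1799 to 2263 and from 729 to 1024. Forkhead genes higher numbered 3 under normexp and 1 under the t-test, and 1 was lower under median scaling, no filter, the intensity trend and the replicate block. LIM homeobox genes higher numbered 0 under normexp, no filter and the t-test. Nephron progenitor factors higher numbered 1 under normexp and 0 under the t-test, with 1 lower under no filter. Paired box genes higher numbered 1 under normexp and 0 under the t-test. Podocyte factors lower numbered 0 under normexp and the t-test, and higher 0 under the t-test. Podocyte genes lower numbered 2 under quantile normalization and 0 with the authors' values, no filter, the t-test, an adjusted p under 0.05 and spots of uneven background left out, and higher 0 under the t-test. Of the Tcf21 relatives, 1 was higher without spots of uneven background. The cause was not tested.

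With 1 array left out, Lmx1b A_55_P2146295 ran from -0.12 to 0.24, with -0.05 and -0.12 without Venus replicate 2 and OASIS replicate 1, and Lmx1b A_66_P131471 from -0.15 to 0.0048, reached without Venus replicate 2. The lone array was then taken to vary like the other group. Genes higher ranged from 5 to 6 in the forkhead, 1 to 2 in the LIM homeobox, 2 to 3 in the paired box, 1 to 2 in the nephron progenitor, 0 to 1 in the podocyte factor, 0 to 1 in the Tcf21 relative and 1 to 2 in the Egr list. Genes lower ranged from 0 to 2 in the forkhead, 0 to 1 in the nephron progenitor, 0 to 3 in the podocyte factor and 0 to 1 in the podocyte gene list.

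Same-numbered arrays deviated together (correlation 0.259), but 2 pairs do not establish pairing. With the replicate number as a block, Wt1 A_55_P1953143 gave 4.62 with limma adjusted p = 0.00601, and the block changed no call of a lineage factor. Lmx1b A_66_P131471 has no value without spots of uneven background. Weak signal over background limits the Wt1 fold, the change and interval of Pax2 A_55_P2148518, the fold of the second Pax9 probe and the bounds of Foxa2 and Foxb2.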
